A study of Arabidopsis with 12 samples.

Results

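The 10 genes described here encode enzymes that conjugate jasmonic acid (JA) or carry it and its conjugate away into other forms. They were taken by locus identifier from the 27371 genes of the table as a set of enzymes of related function, listed with earlier results of these data known. They are *JAR1* (AT2G46370), *IAR3* (AT1G51760), *CYP94B1* (AT5G63450), *CYP94B3* (AT3G48520), *CYP94C1* (AT2G27690), the JA oxidase genes *JOX1* (AT3G11180), *JOX2* (AT5G05600), *JOX3* (AT3G55970) and *JOX4* (AT2G38240), and *ST2A* (AT5G07010). All 10 are nuclear genes, on chromosomes 1, 2, 3 and 5.

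The samples were whole Arabidopsis seedlings, 14 days old, grown on ½ MS agar and kept overnight in liquid medium. RNA was sequenced from 4 conditions, *wlim2a-1* flg22, *wlim2a-1* mock, WT flg22 and WT mock, with 3 biological replicates each and 12 samples in all. The treatment was 1 µM flg22, a bacterial flagellin peptide that plants perceive as a PAMP, or water (mock), for 1 h. *wlim2a-1* is 1 CRISPR-Cas9 allele with an inserted base and a frameshift in *WLIM2A*, which encodes an actin-binding LIM protein, and WT is Col-0. Values were available as 1 FPKM (fragments per kilobase of transcript, scaled to the mapped fragments) per gene and condition, so the replicates had been combined by the authors before deposition. There is therefore no spread between replicates, no test and no p-value beside any value, and whether any difference exceeds replicate error was not tested. Differences are given as log2 of the ratio of FPKM + 1, a scale on which the change of a low gene comes out smaller than its FPKM ratio, and a gene is called higher or lower here if its FPKM + 1 differed 2-fold or more.

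JA is made from chloroplast lipids and becomes an active hormone when JAR1 joins it to isoleucine. The conjugate, JA-Ile, brings the receptor COI1 together with JAZ repressors, which are then degraded, and MYC transcription factors are released to switch on wound and defense genes. The signal is removed along several routes. Amidohydrolases such as IAR3 split the conjugate, cytochromes of the CYP94 family oxidize its end carbon, JOX oxidases hydroxylate free JA before it can be conjugated, and the sulfotransferase ST2A adds sulfate to hydroxylated JA. Many of these turnover genes are themselves switched on by jasmonate, as a negative feedback.

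Libraries and the table as a whole set limits on these values. The upper quartile of the 19323 genes with at least 1 FPKM in some condition lay between 20.0 and 21.3 FPKM in the 4 conditions, so the columns were alike in this measure. They were not alike in the share of the FPKM total that came from one locus, AT2G01021, which was 67.4% in *wlim2a-1* flg22, 56.5% in *wlim2a-1* mock, 28.9% in WT flg22 and 67.4% in WT mock. The number of genes listed at exactly 0 was 4249 to 4602, depending on the condition. The photosynthesis genes *RBCS1A* and *CAB1*, which green seedlings use heavily, were listed at 0 in both WT conditions and at 11504 and 14401 FPKM (*RBCS1A*) and 24963 and 29857 FPKM (*CAB1*) in *wlim2a-1* flg22 and *wlim2a-1* mock, so a listed 0 can be a failed estimate and not an absent transcript. *RCA*, another green tissue marker, lay between 639 and 838 FPKM, and the root markers *PIN2*, *COBL9* and *SCR* between 2.25 and 22.3 FPKM. In mock, *PIN2* had 3.49 FPKM in *wlim2a-1* and 5.35 in WT, *COBL9* had 2.43 and 3.63, and *SCR* had 21.2 and 22.3, log2 differences of −0.50, −0.44 and −0.07, and the part of root tissue in the comparison of the genotypes in mock was not tested. *WLIM2A* had 6.20 FPKM in *wlim2a-1* flg22, 10.9 in *wlim2a-1* mock, 11.6 in WT flg22 and 12.6 in WT mock, and an inserted base leaves a transcript that can be counted, so these levels do not check the genotype. The flg22 marker *CYP81F2* had 194 FPKM in *wlim2a-1* flg22 and 10.3 in *wlim2a-1* mock, and 161 in WT flg22 and 3.93 in WT mock.

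In unchallenged seedlings, *CYP94C1*, *JOX4* and *JOX2* were higher in *wlim2a-1* than in WT, while the conjugating gene *JAR1* stood below WT by less than 2-fold. These 3 of the 10 genes passed 2-fold upward and none downward, where 4.48% of all tested genes were higher and 0.611% lower. The 10 genes differed by a median of 0.27 on the log2 scale, beside 0.01 for all tested genes. After flg22 none of the 10 passed 2-fold between the genotypes in either direction, where 1.16% of tested genes were higher and 0.352% lower, and the median was 0.19, beside −0.02 for all tested genes. The values of the 4 conditions are drawn in the plot of FPKM by gene.

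**Figure D1:**
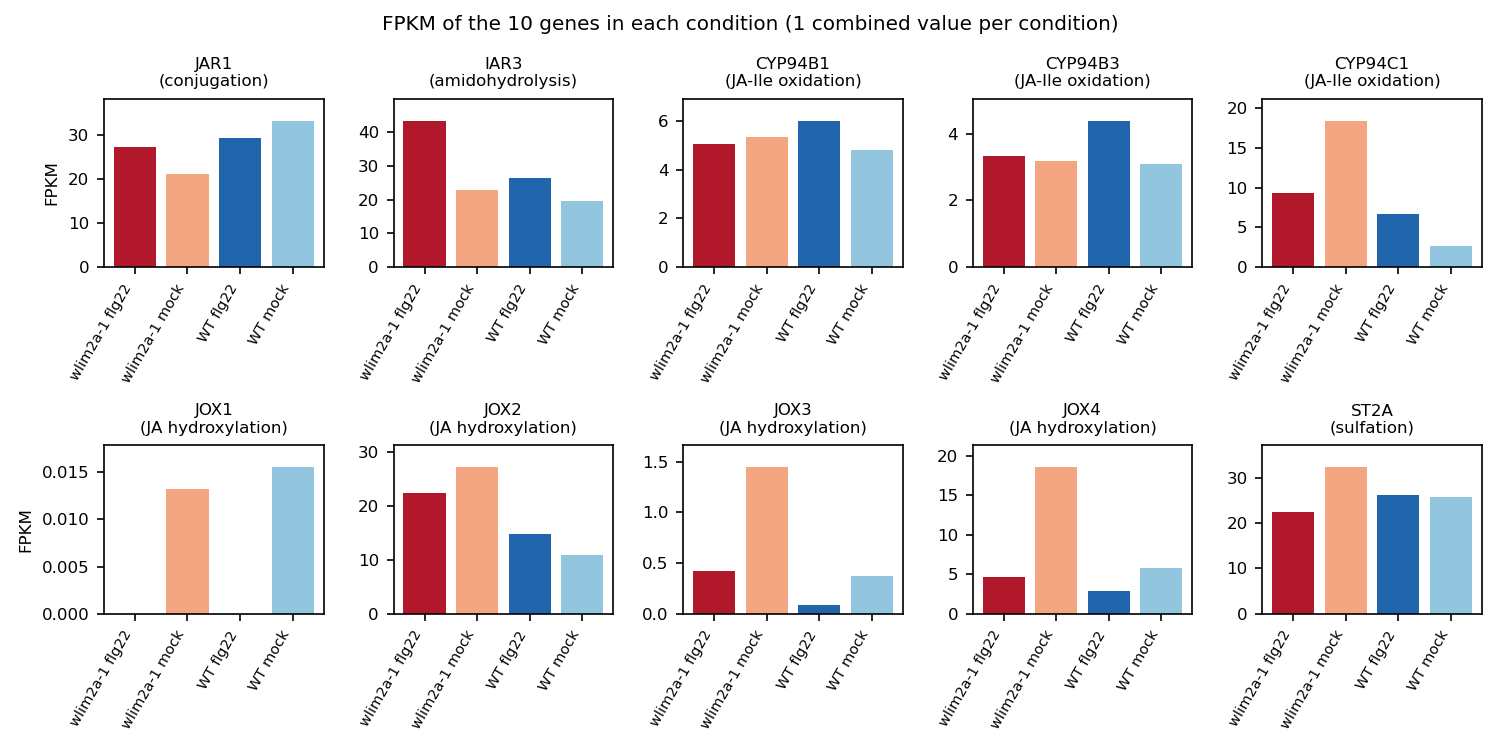
Each panel shows 1 of the 10 genes, with FPKM on the vertical axis from 0 and a scale of its own, and 1 bar for each of the conditions *wlim2a-1* flg22, *wlim2a-1* mock, WT flg22 and WT mock. Each bar is the authors' 1 combined value, without error. *CYP94C1* reached 18.4 FPKM in *wlim2a-1* mock against 2.69 in WT mock, while *CYP94B1* and *CYP94B3* stayed between 3.09 and 6.00 FPKM in all conditions.

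*JAR1* is the only gene of the set that makes the active conjugate. It had 27.1 FPKM in *wlim2a-1* flg22, 21.1 in *wlim2a-1* mock, 29.3 in WT flg22 and 33.1 in WT mock. The lowest value was in *wlim2a-1* mock and the highest in WT mock, a log2 difference of −0.63 between the genotypes in mock and a ratio of 0.637 in FPKM. Among the 1000 genes nearest to *JAR1* in mean level, 84.6% differed by less. With flg22 it differed by 0.35 on the log2 scale in *wlim2a-1* and by −0.17 in WT, and *wlim2a-1* differed from WT by −0.11 after flg22. *JAR1* was number 1 among the 10 genes in WT mock and WT flg22, number 2 in *wlim2a-1* flg22 and number 4 in *wlim2a-1* mock. *GH3.10* (AT4G03400), another member of the acyl amidosynthetase family of *JAR1*, had 6.19, 11.5, 6.35 and 5.84 FPKM in the same order of conditions. It was thus highest where *JAR1* was lowest, 0.87 above WT mock on the log2 scale.

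*IAR3* encodes an amidohydrolase that splits JA-Ile as well as the auxin conjugate IAA-alanine. Its level was 43.3 FPKM in *wlim2a-1* flg22, 22.8 in *wlim2a-1* mock, 26.5 in WT flg22 and 19.5 in WT mock. *wlim2a-1* flg22 stood above the other 3 conditions, which lay between 19.5 and 26.5 FPKM. With flg22, *IAR3* was higher by 0.90 on the log2 scale in *wlim2a-1* and by 0.43 in WT. The genotypes differed by 0.69 after flg22 and by 0.22 in mock, with *wlim2a-1* above WT, and no difference reached 2-fold. Among the 1000 genes nearest in level, 98.1% differed by less between the genotypes after flg22, and 40.3% in mock. The share after flg22 was also high for *JOX2* (96.8%), *JOX4* (95.1%) and *CYP94C1* (93.2%). *IAR3* had the highest FPKM of the 10 genes in *wlim2a-1* flg22 and was number 3 in WT mock.

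Of the other amidohydrolase genes of the family, *ILL6*, *ILR1* and *ILL3* were also highest in *wlim2a-1* flg22, at 4.27, 7.16 and 4.77 FPKM, by smaller margins over the next condition. *ILL6* (AT1G44350), whose product also acts on JA-Ile, was higher in *wlim2a-1* than in WT both after flg22 (4.27 and 2.61 FPKM) and in mock (4.18 and 2.52 FPKM), with log2 differences of 0.55 and 0.56. With flg22 it differed by 0.02 in *wlim2a-1* and 0.03 in WT. *ILR1*, *ILL1*, *ILL2* and *ILL3* had log2 differences between −0.39 and 0.49 in all 4 comparisons. *ILL5*, a close copy of *IAR3* with 1 protein-coding gene between them in the RefSeq annotation, was listed at 0 in both *wlim2a-1* conditions and at 0.027 and 0.012 FPKM in WT flg22 and WT mock. Close copies can share reads, so how their reads were divided is uncertain.

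The CYP94 cytochromes carry out the oxidation of JA-Ile, CYP94B1 and CYP94B3 mainly to the hydroxylated form and CYP94C1 on to the carboxylated form. *CYP94C1* had the widest range of the 10 genes on the log2(FPKM + 1) scale, 2.40 beside 2.33 for *JOX4*. It had 9.39 FPKM in *wlim2a-1* flg22, 18.4 in *wlim2a-1* mock, 6.70 in WT flg22 and 2.69 in WT mock. Both *wlim2a-1* conditions lay above both WT conditions, with the largest gap in mock, where the ratio of FPKM was 6.85 and the log2 difference 2.40. In mock, 99.8% of the 1000 genes nearest in level differed by less, and after flg22 the log2 difference was 0.43.

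With flg22, *CYP94C1* went opposite ways in the 2 genotypes. It was lower in *wlim2a-1* flg22 than in *wlim2a-1* mock, at a log2 difference of −0.90, and higher in WT flg22 than in WT mock, at 1.06. *CYP94C1* was the 1 gene of the 10 to pass 2-fold upward with flg22 in WT, where 4.47% of tested genes did, and none passed downward, where 0.471% did. The WT value did not reach 2-fold with 5 as the pseudocount (0.61) or relative to the reference genes *ACT2* and *UBQ10* (0.59). Relative to these reference genes the *wlim2a-1* value passed 2-fold downward (−1.50), where 21.5% of tested genes did. The response in *wlim2a-1* minus that in WT was −1.96. It was the only one of the 10 genes whose 2 responses differed by at least 1 downward, and none did so upward, where 3.7% of tested genes were lower and 1.46% higher. *JOX4*, at −0.98, was just short. Without values per replicate this difference was not tested.

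*CYP94B1* and *CYP94B3* differed little between conditions. *CYP94B1* had 5.04 FPKM in *wlim2a-1* flg22, 5.32 in *wlim2a-1* mock, 6.00 in WT flg22 and 4.79 in WT mock. *CYP94B3* had 3.32, 3.17, 4.39 and 3.09 FPKM in the same order. Both were highest in WT flg22, by a log2 difference of 0.27 and 0.40 from WT mock, and *wlim2a-1* mock differed from WT mock by 0.13 and 0.03. *CYP94B2* (AT3G01900), their close relative, stayed below 1 FPKM throughout, between 0.570 and 0.854. *CYP94C1* therefore made up 52.9% of the summed FPKM of the CYP94 genes of the set in *wlim2a-1* flg22, 68.5% in *wlim2a-1* mock, 39.2% in WT flg22 and 25.4% in WT mock.

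The JOX genes encode dioxygenases that hydroxylate JA and so divert it before conjugation. *JOX2* had 22.5 FPKM in *wlim2a-1* flg22, 27.2 in *wlim2a-1* mock, 14.8 in WT flg22 and 10.9 in WT mock. Its order of conditions differed from that of *JOX4*, with both *wlim2a-1* conditions above both WT conditions. *wlim2a-1* was above WT by 1.25 on the log2 scale in mock, a ratio of 2.51 in FPKM, and by 0.57 after flg22. With flg22 it was −0.27 in *wlim2a-1* and 0.41 in WT.

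*JOX4* had 4.66 FPKM in *wlim2a-1* flg22, 18.5 in *wlim2a-1* mock, 2.88 in WT flg22 and 5.76 in WT mock. It was lower after flg22 than in mock in both genotypes, at log2 differences of −1.79 in *wlim2a-1* and −0.80 in WT. *JOX4* was the 1 gene of the 10 that passed 2-fold downward with flg22 in *wlim2a-1*, where 4.25% of tested genes did, and none passed upward, where 5.53% did. As ratios of FPKM, *wlim2a-1* flg22 had 0.252 of the level of *wlim2a-1* mock, and WT flg22 had 0.500 of the level of WT mock. *wlim2a-1* was above WT by 1.53 on the log2 scale in mock, where 99.0% of the 1000 genes nearest in level differed by less, and by 0.55 after flg22.

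*JOX3*, known as the jasmonate-regulated gene *JRG21*, had 0.417 FPKM in *wlim2a-1* flg22, 1.44 in *wlim2a-1* mock, 0.085 in WT flg22 and 0.371 in WT mock. The order of the 4 conditions in *JOX3* differed from that in *JOX4* only by the exchange of *wlim2a-1* flg22 and WT mock, at a much lower level. *JOX3* reached 1 FPKM only in *wlim2a-1* mock, so it was among the tested genes only through the condition in which it was highest. Its log2 difference between *wlim2a-1* mock and WT mock was 0.83 with a pseudocount of 1 and 1.71 with a pseudocount of 0.1. With 0.1 it also passed 2-fold in the other 3 comparisons, so at this level the pseudocount sets its call.

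*JOX1* was listed at 0 in *wlim2a-1* flg22 and WT flg22, at 0.013 FPKM in *wlim2a-1* mock and at 0.016 FPKM in WT mock, and did not reach the minimum of 1 FPKM. No fold is given for it against a listed 0. The remaining 9 genes passed the minimum, and counts and medians over the set use all 10. *JOX1* lies directly beside *FAD7* in the RefSeq order of protein-coding genes, and *JOX2* lies near *FAD8* with 2 genes between. FAD7 and FAD8 are chloroplast desaturases that make the linolenic acid from which JA is built. *FAD7* had 78.4, 106, 79.4 and 79.8 FPKM in *wlim2a-1* flg22, *wlim2a-1* mock, WT flg22 and WT mock, and *FAD8* had 10.8, 17.5, 9.83 and 11.3. Both desaturase genes were highest in *wlim2a-1* mock, at log2 differences of 0.41 and 0.60 from WT mock, and *JOX1* beside *FAD7* was near 0 throughout.

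Within the JOX group, *JOX2* held most of the summed FPKM in every condition. Its share was 81.6% in *wlim2a-1* flg22, 57.7% in *wlim2a-1* mock, 83.3% in WT flg22 and 63.9% in WT mock. The share of *JOX4* was 16.9%, 39.2%, 16.2% and 33.9% in the same order. The 2 flg22 conditions were alike in this division and so were the 2 mock conditions, although the summed FPKM of the group was 27.6 in *wlim2a-1* flg22, 47.2 in *wlim2a-1* mock, 17.8 in WT flg22 and 17.0 in WT mock.

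*ST2A* encodes the sulfotransferase at the end of this route. It had 22.4 FPKM in *wlim2a-1* flg22, 32.4 in *wlim2a-1* mock, 26.3 in WT flg22 and 25.7 in WT mock. *wlim2a-1* mock was highest and ranked *ST2A* first among the 10 genes there, but no difference passed 2-fold as deposited. With flg22 its log2 difference was −0.51 in *wlim2a-1* and 0.03 in WT. In the ratio to *ACT2* and *UBQ10* it was −1.13 in *wlim2a-1*, where 21.5% of tested genes were lower by 2-fold. Against WT, *wlim2a-1* had a log2 difference of 0.32 in mock and of −0.22 after flg22. *ST2B* (AT5G07000), its tandem neighbor and close copy, had 3.97, 6.82, 3.77 and 5.40 FPKM, so *ST2A* was between 4.75 and 6.96 times as high as *ST2B* in every condition. Reads shared between the copies make their separate values uncertain.

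**Figure D2:**
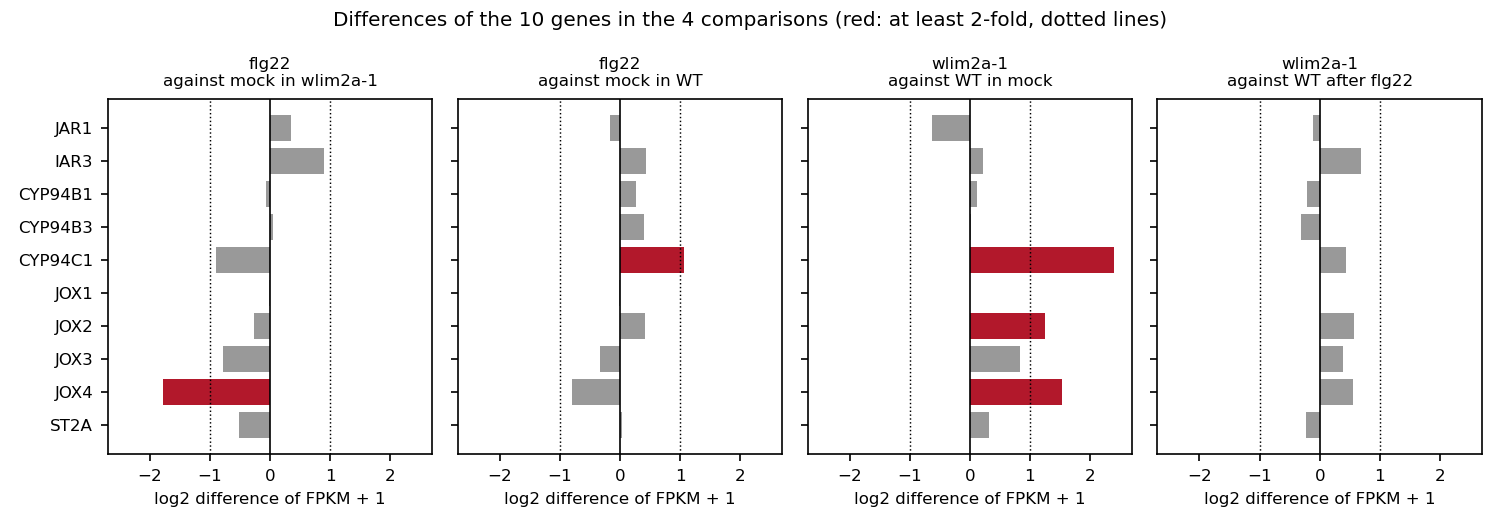
The log2 difference of FPKM + 1 of each of the 10 genes is drawn as a horizontal bar in each of the 4 comparisons, with dotted lines at 2-fold and red bars for genes past it. Red bars mark *JOX4* with flg22 in *wlim2a-1* at −1.79, *CYP94C1* with flg22 in WT at 1.06, and *CYP94C1*, *JOX2* and *JOX4* in mock at 2.40, 1.25 and 1.53, and the panel after flg22 has none.

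With flg22, the 10 genes had a median of −0.17 in *wlim2a-1* and of 0.15 in WT, beside −0.09 and −0.05 for all tested genes. Relative to *ACT2* and *UBQ10* the median in WT was −0.18, where that of all tested genes was −0.55, so its sign depends on the scaling. The same holds for 7 flg22 differences of single genes, none of which had passed 2-fold. Under that ratio, *IAR3* (−0.14), *CYP94B1* (−0.22), *CYP94B3* (−0.06), *JOX2* (−0.13) and *ST2A* (−0.54) were lower with flg22 in WT, and *JAR1* (−0.27) and *CYP94B3* (−0.44) in *wlim2a-1*. Upper quartile scaling turned the signs of *ST2A* with flg22 in WT (−0.04) and of *CYP94B3* between the genotypes in mock (−0.04). The 4 comparisons share conditions, *wlim2a-1* mock and WT mock among them, and their values are therefore not independent.

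The levels of the turnover genes were also set against that of *JAR1* within each condition, a ratio that the scaling of a column cannot alter. *IAR3* had 1.60 FPKM per FPKM of *JAR1* in *wlim2a-1* flg22, 1.08 in *wlim2a-1* mock, 0.904 in WT flg22 and 0.588 in WT mock. Both *wlim2a-1* conditions were above both WT conditions, and in each genotype flg22 was above mock. For the sum of the 3 CYP94 genes the ratio was 0.656, 1.28, 0.583 and 0.319, and for the sum of the 4 JOX genes 1.02, 2.24, 0.606 and 0.514. *ST2A* had 0.827, 1.54, 0.896 and 0.777 per *JAR1*. *wlim2a-1* mock was thus highest in the CYP94, JOX and *ST2A* ratios and *wlim2a-1* flg22 in the *IAR3* ratio, and WT mock was lowest in all 4. *JAR1*, the shared denominator, was itself highest in WT mock and lowest in *wlim2a-1* mock and enters each of these orders. By its own FPKM *ST2A* was lowest in *wlim2a-1* flg22, and *IAR3* was lower in *wlim2a-1* mock than in WT flg22.

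**Figure D3:**
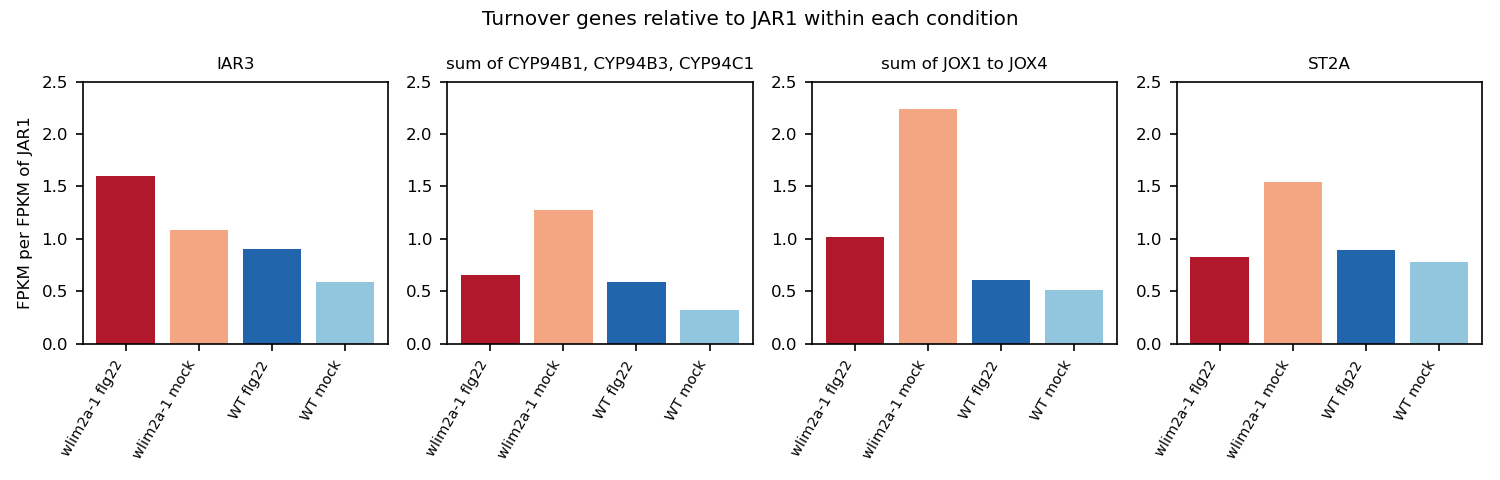
The vertical axis gives the FPKM of *IAR3*, of the summed CYP94 genes, of the summed JOX genes and of *ST2A* divided by the FPKM of *JAR1* in the same condition, on 1 scale from 0, with 1 bar per condition. The JOX ratio of 2.24 in *wlim2a-1* mock is the highest bar, against 0.514 in WT mock, and the *IAR3* panel alone has its highest bar in *wlim2a-1* flg22, at 1.60.

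The other jasmonate genes were compared from lists written from general knowledge. Of 14 biosynthesis genes, 7 were higher and none lower in *wlim2a-1* in mock, with a median log2 difference of 1.05. After flg22, 2 were higher and none lower, with a median of 0.42. Of all tested genes, 4.48% were higher and 0.611% lower in mock, and 1.16% and 0.352% after flg22. *LOX2*, a chloroplast lipoxygenase of the first step, had 12.9 FPKM in *wlim2a-1* flg22, 371 in *wlim2a-1* mock, 5.79 in WT flg22 and 10.4 in WT mock. *LOX4*, another lipoxygenase gene, had 59.6, 7.99, 52.5 and 0.514 FPKM in the same order. *LOX2* shared its highest condition with *JOX4* and *CYP94C1*, and *LOX4* was highest after flg22.

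*AOC1* and *AOC2*, allene oxide cyclase genes in tandem whose reads may be shared, had 82.4, 22.9, 46.1 and 6.02 FPKM and 94.9, 181, 43.5 and 37.7 FPKM. With flg22, 3 of the 14 biosynthesis genes were higher and 1 lower in *wlim2a-1*, where 5.53% of all tested genes were higher and 4.25% lower. In WT, 4 were higher and none lower, where 4.47% of tested genes were higher and 0.471% lower. Relative to *ACT2* and *UBQ10* these counts were 2 and 2 in *wlim2a-1* (2.9% and 21.5% of tested genes) and 2 and 1 in WT (2.6% and 3.85%). The counts of biosynthesis genes between the genotypes were the same under both scalings.

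Of the 12 *JAZ* repressor genes, 3 were higher and none lower in *wlim2a-1* in mock, where 4.48% and 0.611% of tested genes were. After flg22 none passed 2-fold between the genotypes, and the medians were 0.48 in mock and 0.24 after flg22. With flg22, 3 were higher in *wlim2a-1* (5.53% of tested genes) and 4 in WT (4.47%), and none was lower (4.25% and 0.471%). Relative to *ACT2* and *UBQ10*, 2 were higher in *wlim2a-1* (2.9%) and 4 in WT (2.6%), and none was lower (21.5% and 3.85%). *JAZ1* had 205 FPKM in *wlim2a-1* flg22, 57.5 in *wlim2a-1* mock, 124 in WT flg22 and 16.7 in WT mock. *JAZ5* had 13.8, 4.34, 9.09 and 0.634 FPKM, and *JAZ6* had 43.9, 27.3, 37.3 and 8.97. *JAZ1*, *JAZ5* and *JAZ6* had log2 differences with flg22 of 1.82, 1.47 and 0.67 in *wlim2a-1* and 2.82, 2.63 and 1.94 in WT. *JAZ6* thus did not reach 2-fold in *wlim2a-1*. *JAZ8*, below 5 FPKM throughout, passed 2-fold in both genotypes, at 1.38 in *wlim2a-1* and 1.23 in WT. *JAZ9* had 9.50, 7.05, 8.50 and 5.86 FPKM.

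Other genes of these lists had log2 differences with flg22 below 0 in *wlim2a-1* and above 0 in WT, as *CYP94C1* did. They include *JAZ7* (−0.37 and 0.48), *OPCL1*, a ligase gene of biosynthesis (−0.36 and 1.22), *AOC2* (−0.92 and 0.20) and *GH3.10* (−0.79 and 0.10). As deposited, the same signs were seen in *JOX2* (−0.27 and 0.41), *ST2A* (−0.51 and 0.03) and *CYP94B1* (−0.07 and 0.27) of the 10 genes. *AOC1*, *JAZ1* and *JAZ5* were above 0 in both genotypes. Relative to *ACT2* and *UBQ10*, *JOX2* (−0.13), *ST2A* (−0.54) and *CYP94B1* (−0.22) were below 0 in WT too, while *CYP94C1* stayed above 0 (0.59). With upper quartile scaling *ST2A* was also below 0 in WT (−0.04). The share of all tested genes with opposite signs in the genotypes was not counted. The response in *wlim2a-1* minus that in WT was −1 or lower for 4 of the 14 biosynthesis genes, *LOX2* (−3.99), *LOX4* (−2.39), *OPCL1* (−1.58) and *AOC2* (−1.12). So it was for 3 of the 12 *JAZ* genes, *JAZ6* (−1.28), *JAZ5* (−1.15) and *JAZ1* (−1.01), and for 3.7% of all tested genes. The counts were 4 and 2 with upper quartile scaling (3.03%), and 6 and 3 relative to *ACT2* and *UBQ10* (4.73%). None of the biosynthesis or *JAZ* genes had a difference of 1 or more upward, where 1.46% of tested genes did as deposited. *JAZ7* and *OPCL1* were named after their values were seen.

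None of the 6 genes for the receptor, MYC factors and the vegetative storage proteins passed 2-fold in any comparison. In median, *wlim2a-1* differed from WT by 0.0021 in mock and 0.08 after flg22 on the log2 scale. *MYC2*, the main activator of the pathway, had 66.5, 45.6, 61.3 and 40.0 FPKM in *wlim2a-1* flg22, *wlim2a-1* mock, WT flg22 and WT mock. *VSP2*, a jasmonate output gene, had 35.0, 20.5, 27.6 and 20.1, *VSP1* had 22.9, 17.6, 24.6 and 17.9, and *MYC4* had 15.9, 17.1, 15.4 and 19.0. The output genes *VSP1* and *VSP2* therefore differed by −0.02 and 0.03 on the log2 scale between *wlim2a-1* mock and WT mock, where *CYP94C1* differed by 2.40.

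Of 10 relatives of the conjugation and turnover genes (*ILL6*, *ILR1*, *ILL1*, *ILL2*, *ILL3*, *ILL5*, *CYP94B2*, *ST2B*, *JMT* and *GH3.10*), none passed 2-fold in any of the 4 comparisons as deposited. Relative to *ACT2* and *UBQ10*, 2 were lower with flg22 in *wlim2a-1*, where 21.5% of all tested genes were lower. Between *wlim2a-1* and WT the relatives differed by a median of −0.01 in mock and 0.01 after flg22 on the log2 scale. *JMT*, which encodes the methyltransferase that makes methyl jasmonate, was below 1 FPKM throughout and had 0.593 FPKM in *wlim2a-1* mock against 0.116 in WT mock.

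**Figure D4:**
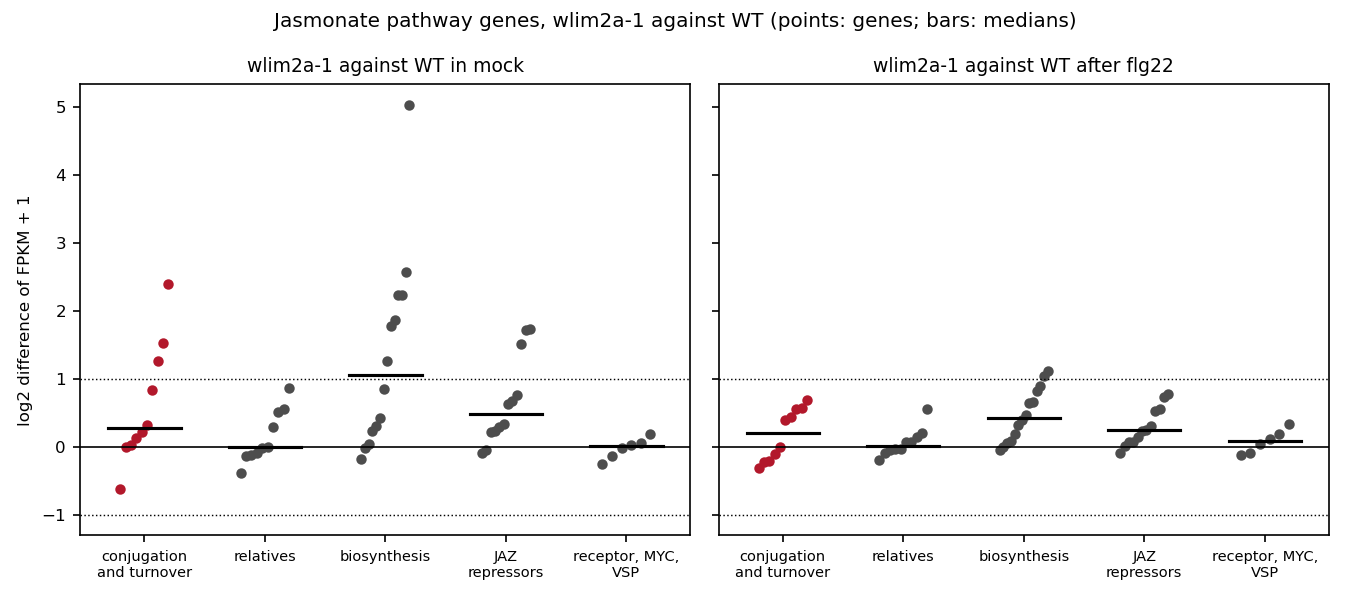
Points are single genes and horizontal bars are medians of the log2 difference of FPKM + 1 between *wlim2a-1* and WT, in mock on the left and after flg22 on the right, for the 10 conjugation and turnover genes (red), their 10 relatives, 14 biosynthesis genes, 12 *JAZ* genes and 6 genes for the receptor, MYC factors and VSP proteins, with dotted lines at 2-fold. In mock the biosynthesis genes had the highest median, 1.05, and *LOX2* the highest value, 5.02, and after flg22 2 points, both of biosynthesis genes, passed 2-fold.

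Over the 4 conditions, the genes outside the lists with the pattern most like that of *CYP94C1*, by Euclidean distance of centered log2(FPKM + 1), were *ZAR1* (AT3G50950), AT1G31540, AT5G04020, *NAC036* (AT2G17040) and AT5G01380, at distances from 0.11 to 0.29. *ZAR1*, an immune receptor gene of the NLR class, had 96.6, 197, 78.4 and 36.7 FPKM in *wlim2a-1* flg22, *wlim2a-1* mock, WT flg22 and WT mock. Among the 10 genes themselves *JOX2* was nearest to *CYP94C1*, at 0.82, and *JAR1* farthest, at 2.17. With 4 values per gene, many genes can share such a pattern.

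*wlim2a-1* mock, the condition in which *CYP94C1*, *JOX2*, *JOX3*, *JOX4* and *ST2A* were highest, also stood apart in organelle transcripts. The 83 tested genes encoded in the chloroplast had a median log2 difference of 2.00 from WT mock, with 65 higher and 5 lower, and 0.46 between the genotypes after flg22. The 58 mitochondrial genes had medians of 0.51 and 0.09. The part of this difference between the conditions in the values of the jasmonate genes was not tested, and since the replicates were combined, 1 deviating sample in *wlim2a-1* mock and a difference in all 3 cannot be told apart.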

How the data were processed

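RNA-Seq of 12 seedling samples, 3 per condition, was processed by the authors. Per the paper's methods and the submitters' processing notes, reads were checked with FastQC 0.11.5, trimmed, aligned to TAIR 10 with TopHat 2.1.1 and assembled with Cufflinks, and Cuffdiff 2.2.1 with quartile normalization and limma served to find significant expression. The deposited values are FPKM, 1 per gene and condition, with the replicates combined by the authors; the sources used here do not name the program that wrote them. The sequenced depth is unknown, so no interval or detection limit was computed.

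FPKM values were used as deposited, with a pseudocount of 1 before log2 and a 2-fold threshold, over 19323 genes with at least 1 FPKM in at least 1 condition. Calculations used Python 3.11.15 and pandas 2.3.3. The calling of genes was checked on copies of the WT mock values with known changes put in and no noise, which checks the arithmetic only. In place of an error, a gene's difference was ranked among those of the 1000 genes nearest in mean log2 level, as a description. Names and gene order came from RefSeq (assembly TAIR10.1), where all 66 listed loci were found; no coordinates are given because the authors' build is named TAIR 10. Jasmonate oxidase names follow the locus list, since RefSeq names *JOX3* as *JRG21* and gives *JOX1*, *JOX2* and *JOX4* no symbol.

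Of each pathway list, the genes named were up to 4 with the widest range over the conditions among those reaching 5 FPKM, and the close relatives of the 10 genes. *JMT* and the other relatives below 5 FPKM were named as family members. *JAZ8*, also below 5 FPKM, was named because it passed 2-fold with flg22. The 10 genes and the lists were chosen with earlier results of these data known. The alternatives were pseudocounts of 0.1 and 5, no FPKM minimum and a minimum of 5, thresholds of 1.5-fold and 4-fold, scaling by the upper quartile, and a ratio to *ACT2* and *UBQ10*. That ratio was to the mean FPKM of the 2 genes. *UBQ10*, at 994 to 1660 FPKM, weighed more in this mean than *ACT2*, at 292 to 419 FPKM. A planned count of promoter motifs was not done, as no sequence was used here.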

Additional observations from a re-analysis of the deposited data

Results flagged for a closer look

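*CYP94C1* had log2 differences with flg22 of opposite direction in the genotypes, −0.90 in *wlim2a-1* and 1.06 in WT. The response in *wlim2a-1* minus that in WT was −1.96, and this difference was not tested, since each condition had 1 value.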

How the results depend on the processing

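With 1 value per gene and condition, no replicate could be left out. No paired analysis was possible because the columns carry no replicate numbers. Scaling by the upper quartile and removing the FPKM minimum moved no count of the 10 genes and no call of a single gene. With a minimum of 5 FPKM, 7 of the 10 genes were left and none of their calls changed. Shares of all tested genes at the same setting stand in brackets. In *wlim2a-1*, 1 of the 10 genes was lower with flg22 (4.25%), against 2 with a pseudocount of 0.1 (6.58%), 3 at 1.5-fold (14.3%), 0 at 4-fold (0.605%) and 4 in the ratio to *ACT2* and *UBQ10* (21.5%), and 1 was higher at 1.5-fold (11.4%). The 4 in the ratio were *JOX4* (−2.36), *CYP94C1* (−1.50), *ST2A* (−1.13) and *JOX3* (−1.10). In WT, the 1 gene higher with flg22 (4.47%) became 0 with a pseudocount of 5 (2.82%), at 4-fold (1.59%) and as the ratio (2.6%). The 1 gene lower with flg22 in WT was not the same at each setting. It was *JOX3* with a pseudocount of 0.1 (1.12%), and *JOX4* at 1.5-fold (2.15%) and as the ratio (3.85%). As that ratio, the median of the 10 genes with flg22 in WT reversed to −0.18. The ratio lowers flg22 responses in general, because its denominator was higher after flg22, with log2 differences of 0.69 for *UBQ10* and 0.46 for *ACT2* in *wlim2a-1* and 0.72 and 0.16 in WT, and the median of all tested genes was −0.63 and −0.55. With it, 561 tested genes were higher and 4150 lower with flg22 in *wlim2a-1*, against 1068 and 822 as deposited, and 503 and 743 in WT, against 864 and 91. In mock, the 3 genes higher in *wlim2a-1* (4.48%) became 4, with *JOX3*, with a pseudocount of 0.1 (6.62%) and at 1.5-fold (12.5%), and 1, *CYP94C1*, at 4-fold (0.968%), and 1 gene, *JAR1*, was lower at 1.5-fold (4.59%). After flg22, 1 gene was higher in *wlim2a-1* with a pseudocount of 0.1 (*JOX3*, 1.97%) and 1 at 1.5-fold (*IAR3*, 2.93%). The response differed downward by the threshold for 1 gene (3.7%), against 3 at 1.5-fold (11.8%), 0 at 4-fold (0.776%) and 2 as the ratio (4.73%). *CYP94C1*, *JOX2* and *JOX4* stayed above 2-fold in mock with either pseudocount and either scaling.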
